A study of Yarrowia lipolytica with 9 samples.

Results

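The gene described here is XM_500127.1, an alcohol dehydrogenase that the study calls ADH5 (locus YALI0A16379g), in 3 strains of the oleaginous yeast Yarrowia lipolytica. It is 1 of the 6145 features with a read count and 1 of the 6037 that had enough counts to be tested. The gene was chosen by its measured values, because its level was graded over the 3 strains in these same samples. Its own levels and differences are therefore given as a description, with standard errors and without a p-value. ADH5 is a working name: the deposited tables carry the accession alone, the study uses the same name for other loci as well, and the pairing of accession and locus could not be checked from the tables used here. The RefSeq annotation of strain W29 lists the accession as YALI1_A16292g on chromosome 1A with a transcript of 1050 bases, and the length implied by the deposited counts and FPKM was 1050 bases in all 9 samples.

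Alcohol dehydrogenases interconvert alcohols and aldehydes or ketones, with NAD(H) or NADP(H) as the carrier of the electrons. In Saccharomyces cerevisiae, ADH5 encodes isoenzyme V, one of several alcohol dehydrogenases of that yeast. Pathway maps place such enzymes in glycolysis and ethanol metabolism and also in fatty acid degradation, where they act on fatty alcohols, and the study listed the gene under the second heading. Y. lipolytica stores much of its carbon as lipid and grows on alkanes and fatty acids. The oxidation of the alkanes passes through fatty alcohols and fatty aldehydes.

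The strains Yl_5_3, Yl_5_2 and Yl_5_1 were represented by 3 samples each. All of them derive from ATCC 201249, a MATA strain with ura3, leu2 and lys8 mutations and tagged PEX17, and all carry a beta-carotene pathway (crtE, crtB, crtI, crtY) at the rDNA and a row of extra Yl-SPT15 cassettes, each behind a promoter of its own, at the GUT2 locus, where the study could not verify the right-hand junction. Yl-SPT15 is the presumed counterpart of the gene for the TATA-binding protein. In Yl_5_3 the second cassette has a Phe-to-Leu change. Yl_5_2 has a Glu-to-Ala change in the first cassette and Pro-to-Thr, Ala-to-Thr and Ala-to-Val changes in the fifth. Yl_5_1, the control, has wild-type cassettes. Each mutant strain came from a single colony picked by its colour, so that a strain and the clone that represents it cannot be told apart. Cells were collected after 96 h in flasks at 28 °C, and the labels do not say whether the samples of a strain were separate cultures. The p-values below therefore measure only the spread between these samples, which may be technical. Total counts ran from 17771507 to 23288547 per sample.

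ADH5 was a gene of modest level in the control and close to the bottom of the transcriptome in Yl_5_3. The deposited FPKM values, which are counts per length and per total count of the sample, were 3.35, 3.74 and 2.47 in Yl_5_3, 12.9, 13.8 and 16.0 in Yl_5_2, and 23.02, 20.5 and 20.5 in Yl_5_1. The order Yl_5_3, Yl_5_2, Yl_5_1 held without any overlap of samples. Mean levels were 3.18 ± 0.653 FPKM in Yl_5_3, 14.2 ± 1.59 FPKM in Yl_5_2 and 21.3 ± 1.45 FPKM in Yl_5_1 (SD, n = 3 each). The highest Yl_5_3 sample, at 3.74 FPKM, was separated from the lowest Yl_5_2 sample, at 12.9 FPKM, by a factor of 3.45. Between the highest Yl_5_2 sample, at 16.0 FPKM, and the lowest Yl_5_1 sample, at 20.5 FPKM, the factor was 1.28, so that this was the narrower of the gaps between strains next to each other in the order. Being values from bulk RNA, these levels are shares of the transcripts of a culture, and fewer cells that express the gene cannot be told apart from less of its RNA per cell.

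**Figure D1:**
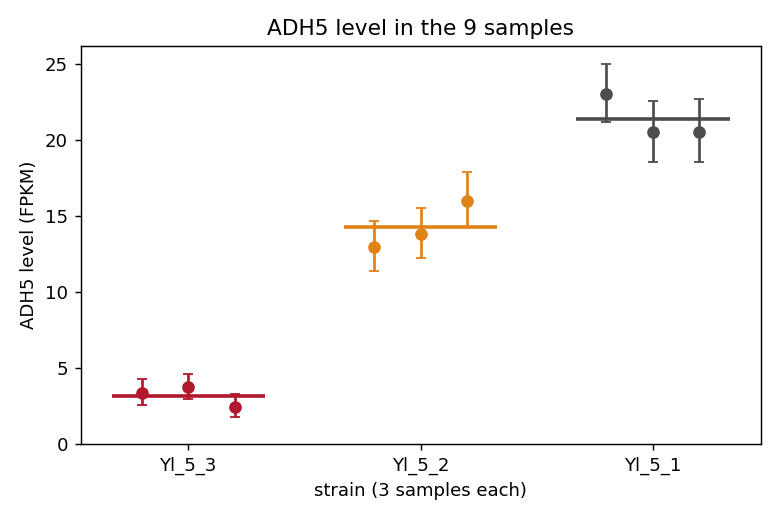
ADH5 level in FPKM (vertical axis, linear, from 0) in each sample of Yl_5_3, Yl_5_2 and Yl_5_1, with points for samples, bars for exact 95% counting intervals and horizontal lines for strain means. The Yl_5_3 samples lie between 2.47 and 3.74 FPKM, the Yl_5_2 samples between 12.9 and 16.0 FPKM and the Yl_5_1 samples between 20.5 and 23.02 FPKM.

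These levels rest on few reads. ADH5 received 67, 85 and 46 counts in Yl_5_3, 243, 272 and 302 counts in Yl_5_2, and 563, 405 and 383 counts in Yl_5_1. Every Yl_5_3 sample had under 100 counts although the libraries of the 3 strains were of like depth. In the lowest sample, replicate 3 of Yl_5_3, the exact (Clopper-Pearson) 95% interval of the level ran from 1.80 to 3.29 FPKM. The interval reached 17.9 FPKM at its upper end in the highest Yl_5_2 sample and began at 18.5 FPKM in replicates 2 and 3 of Yl_5_1. These intervals are given as a description, since the gene was chosen for this separation. Such intervals cover counting error only, since reads amplified by PCR are not independent molecules.

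The spread between the samples of a strain was higher in value than counting error, though estimated from 3 samples each. On the scale of CPM, which are counts relative to a library size scaled by edgeR's TMM factors, the coefficient of variation was 20.1% in Yl_5_3, 10.5% in Yl_5_2 and 6.10% in Yl_5_1, against 12.3%, 6.06% and 4.71% expected from the counts in the same order of strains. The relative spread was thus largest where the gene was lowest. The biological coefficient of variation that edgeR estimated for ADH5, which leaves counting error out, was 6.03%. The trend of features of its abundance was 5.50%. edgeR draws the first value toward the second, so that nothing is read from their nearness.

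Relative to the control, ADH5 was lower in both mutant strains, and far more so in Yl_5_3. Its TMM-scaled level was 3.66, 4.09 and 2.72 CPM in Yl_5_3, 13.0, 13.995 and 15.9 CPM in Yl_5_2, and 24.0, 21.5 and 21.7 CPM in Yl_5_1. The means were 3.49 ± 0.701 CPM in Yl_5_3, 14.3 ± 1.501 CPM in Yl_5_2 and 22.4 ± 1.37 CPM in Yl_5_1 (SD, n = 3 each), and the samples kept the order seen in FPKM. The log2 difference between Yl_5_3 and Yl_5_1 was -2.67 (SE 0.12), a level 6.36-fold lower in Yl_5_3. Between Yl_5_2 and Yl_5_1 it was -0.65 (SE 0.09), which is 1.57-fold lower in Yl_5_2. The difference between the mutant strains was -2.02 (SE 0.13), with Yl_5_3 lower by 4.05-fold. On the log2 scale the level in Yl_5_2 had thus covered 24.4% of the distance between Yl_5_1 and Yl_5_3, and the remainder lay between the mutant strains. In mean FPKM, the level was 85.1% lower in Yl_5_3 and 33.3% lower in Yl_5_2 than in Yl_5_1.

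A difference of some size was common in these strains. With the edgeR quasi-likelihood fit and a Benjamini-Hochberg threshold of 0.05, 3338 of the 6037 features, or 55.3%, differed between Yl_5_3 and Yl_5_1, 3467, or 57.4%, between Yl_5_2 and Yl_5_1, and 4070, or 67.4%, between Yl_5_3 and Yl_5_2. Separation of the samples was also frequent. Every Yl_5_3 sample lay below every Yl_5_1 sample for 33.1% of features (1997), every Yl_5_2 sample below every Yl_5_1 sample for 31.5% (1904), and every Yl_5_3 sample below every Yl_5_2 sample for 38.4% (2320). ADH5 belongs to each of these sets, which its choice fixed, and nothing is read from that. The median log2 difference over all features was -0.00 for Yl_5_3 against Yl_5_1, -0.01 for Yl_5_2 against Yl_5_1 and -0.03 for Yl_5_3 against Yl_5_2.

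Its place in each comparison is given here as a description. In Yl_5_3 against Yl_5_1, 13 of the 6037 features had a lower log2 difference than ADH5, and 20 (0.331%) had a larger one in either direction. In Yl_5_2 against Yl_5_1 the same numbers were 86 and 447 (7.40%), and in Yl_5_3 against Yl_5_2 they were 57 and 66 (1.09%). ADH5 thus stood near the lower extreme for Yl_5_3 and farther from it for Yl_5_2. With features under a mean of 10 CPM in both strains of a comparison left out, 8 of 5265 features had a lower difference than ADH5 in Yl_5_3 against Yl_5_1, 71 of 5300 in Yl_5_2 against Yl_5_1 and 37 of 5308 in Yl_5_3 against Yl_5_2.

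**Figure D2:**
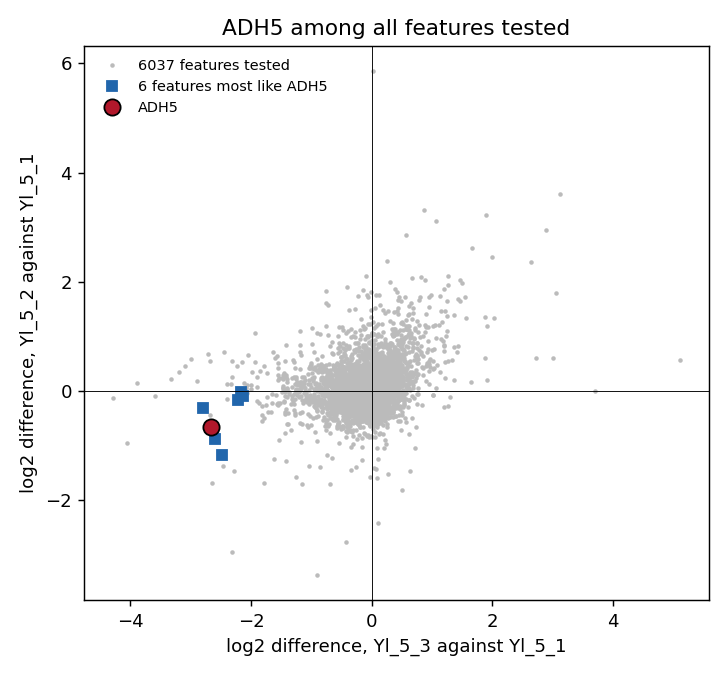
Log2 difference of Yl_5_3 against Yl_5_1 (horizontal axis) and of Yl_5_2 against Yl_5_1 (vertical axis) for the 6037 features tested (grey points), the 6 features nearest to ADH5 in profile (squares) and ADH5 (circle). ADH5 lies at -2.67 and -0.65, at the left edge of the cloud and below its middle; both axes share the Yl_5_1 samples.

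A graded order joins the separation of Yl_5_3 from Yl_5_2 with that of Yl_5_2 from Yl_5_1, so it cannot be more common than either. For 225 features, which is 3.73% of those tested, every Yl_5_3 sample was below every Yl_5_2 sample and every Yl_5_2 sample below every Yl_5_1 sample, and for 148 the order was the reverse. Over the 225, ADH5 included, the median log2 difference was -0.60 for Yl_5_3 against Yl_5_1, -0.23 for Yl_5_2 against Yl_5_1 and -0.31 for Yl_5_3 against Yl_5_2. Only 48 of them were at least 2-fold lower in Yl_5_3 than in Yl_5_1. As for ADH5, the step between Yl_5_3 and Yl_5_2 was the larger step in 142 of the 225. No other feature of the 225 (0) had both steps as large as those of ADH5. These limits are the values of ADH5 itself, which was chosen for its graded fall, so that nothing is read from this count.

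The difference between Yl_5_3 and Yl_5_1 was larger in value than that of ADH5 in 2 of the graded features, which are named here after their values were seen. XM_505912.1 averaged 2.31 CPM in Yl_5_3, 13.3 CPM in Yl_5_2 and 16.5 CPM in Yl_5_1. Its log2 difference was -2.79 (SE 0.21) for Yl_5_3 against Yl_5_1 and -0.31 (SE 0.15) for Yl_5_2 against Yl_5_1. XM_499645.1 averaged 1.02 CPM in Yl_5_3, 4.92 CPM in Yl_5_2 and 6.63 CPM in Yl_5_1. Its differences were -2.68 (SE 0.19) and -0.43 (SE 0.14) in the same comparisons, the first within its SE of that of ADH5. In both, the difference of Yl_5_2 from the control was smaller in value than the -0.65 (SE 0.09) of ADH5. No contrast of these features with ADH5 was tested. Neither accession is paired with a gene name or a function in the tables used here.

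The level of ADH5 among the features of each strain is best read in FPKM, which is per length. By mean FPKM, with rank 1 the highest, ADH5 was at rank 5630 of 6145 in Yl_5_3, at rank 4828 in Yl_5_2 and at rank 4284 in Yl_5_1. Single samples gave ranks of 5614, 5573 and 5721 in Yl_5_3, 4929, 4844 and 4729 in Yl_5_2, and 4175, 4332 and 4296 in Yl_5_1. The ranks of the strains did not overlap. ADH5 thus had 515 features below it in Yl_5_3, 1317 in Yl_5_2 and 1861 in Yl_5_1. Even in the control it was in the lower part of the ranking, with 69.7% of features at or above its rank, against 91.6% in Yl_5_3 and 78.6% in Yl_5_2.

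The median feature had an FPKM of 41.0 in Yl_5_3, 47.2 in Yl_5_2 and 45.0 in Yl_5_1. The level of ADH5 divided by that of the median feature was 0.0777 in Yl_5_3, 0.302 in Yl_5_2 and 0.475 in Yl_5_1. The level of a typical feature therefore moved little beside that of ADH5. In rank, ADH5 was 1346 places lower in Yl_5_3 than in Yl_5_1, and 46 of the 6145 features had a larger drop. It was 544 places lower in Yl_5_2 than in Yl_5_1, where 107 features dropped farther, and 802 places lower in Yl_5_3 than in Yl_5_2, where 221 did. Features are not evenly spaced over the range of levels, so that a given fold difference covers a different number of ranks at different heights. For ADH5, a log2 difference of -0.65 between Yl_5_2 and Yl_5_1 went with 544 ranks. The -2.02 between Yl_5_3 and Yl_5_2, lower in the ranking, went with 802.

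**Figure D3:**
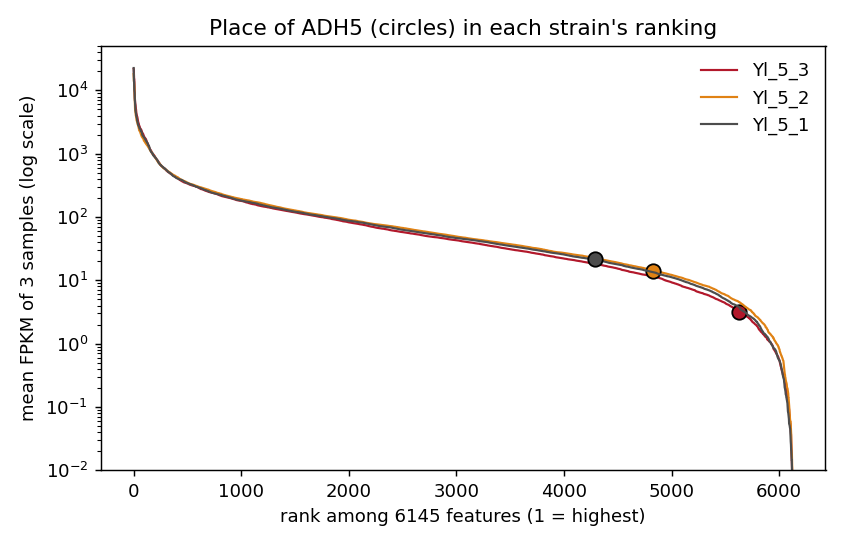
Mean FPKM of 3 samples (vertical axis, log scale) against rank among the 6145 features (horizontal axis, 1 = highest), with a line for each of Yl_5_3, Yl_5_2 and Yl_5_1 and circles for ADH5; features below the lower end of the axis are not drawn. The lines nearly coincide, while the ADH5 circle is at rank 5630 in Yl_5_3, 4828 in Yl_5_2 and 4284 in Yl_5_1.

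By the distance used here, the profile of ADH5 over the 9 samples had few close matches. Likeness was measured as the root-mean-square distance of log2 CPM, each feature relative to its own mean in Yl_5_1, over the 9 samples, among the 5211 features whose mean in Yl_5_1 was 10 CPM or more. The median distance from ADH5 was 1.59, 6 features were within 0.5 and 0 within 0.25. The 6 nearest were XM_504785.1 at 0.262, XM_505912.1 at 0.338, XM_499605.1 at 0.398, XM_503597.1 at 0.410, XM_505160.1 at 0.473 and XM_501197.1 at 0.488. These distances are descriptions, since the 9 samples fall into 3 strains and a profile of this shape needs little more than their means. They also grow with the size of the fall for which ADH5 was chosen, so that nothing is read from the small number of close matches.

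XM_504785.1 came closest. It had 10.3, 7.74 and 9.69 CPM in Yl_5_3, 28.8, 27.3 and 34.9 CPM in Yl_5_2, and 58.9, 54.0 and 54.8 CPM in Yl_5_1, so that its samples followed the order of ADH5 without overlap at a higher level in CPM. Its log2 difference was -2.60 (SE 0.10) for Yl_5_3 against Yl_5_1 and -0.89 (SE 0.09) for Yl_5_2 against Yl_5_1. In Yl_5_2 it was therefore somewhat lower relative to the control than ADH5, which had -0.65.

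The next 3 by the same rule had the following levels. XM_499605.1 had 2.08, 2.60 and 2.66 CPM in Yl_5_3, 6.62, 5.56 and 6.12 CPM in Yl_5_2, and 13.0, 12.4 and 15.7 CPM in Yl_5_1. Its difference for Yl_5_2 against Yl_5_1, -1.16 (SE 0.12), was the largest of the 6. XM_505912.1 had 1.64, 3.70 and 1.60 CPM in Yl_5_3, 12.8, 14.05 and 13.1 CPM in Yl_5_2, and 18.1, 15.8 and 15.5 CPM in Yl_5_1. XM_503597.1 had 19.2, 17.7 and 17.6 CPM in Yl_5_3, 74.9, 77.9 and 72.9 CPM in Yl_5_2, and 87.4, 81.8 and 85.1 CPM in Yl_5_1. In these 3 features, too, the samples of the strains were in the graded order without overlap.

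In the last 2 of the 6 the samples of Yl_5_2 and Yl_5_1 overlapped. XM_505160.1 had 68.9, 63.8 and 66.7 CPM in Yl_5_3, 263.9, 265.6 and 289.1 CPM in Yl_5_2, and 275.1, 299.4 and 303.1 CPM in Yl_5_1. XM_501197.1 had 148.3, 145.3 and 150.6 CPM in Yl_5_3, 640.8, 623.4 and 697.4 CPM in Yl_5_2, and 712.2, 667.0 and 618.0 CPM in Yl_5_1. These features shared with ADH5 a level in Yl_5_3 far below their own level in the control, and not the intermediate level in Yl_5_2. By Pearson's r in place of distance, 194 features had an r of at least 0.95 with ADH5 over the 9 samples, and 37 at least 0.98. The first 6 by r shared 0 features with the 6 by distance, whose r was between 0.944 and 0.977.

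**Figure D4:**
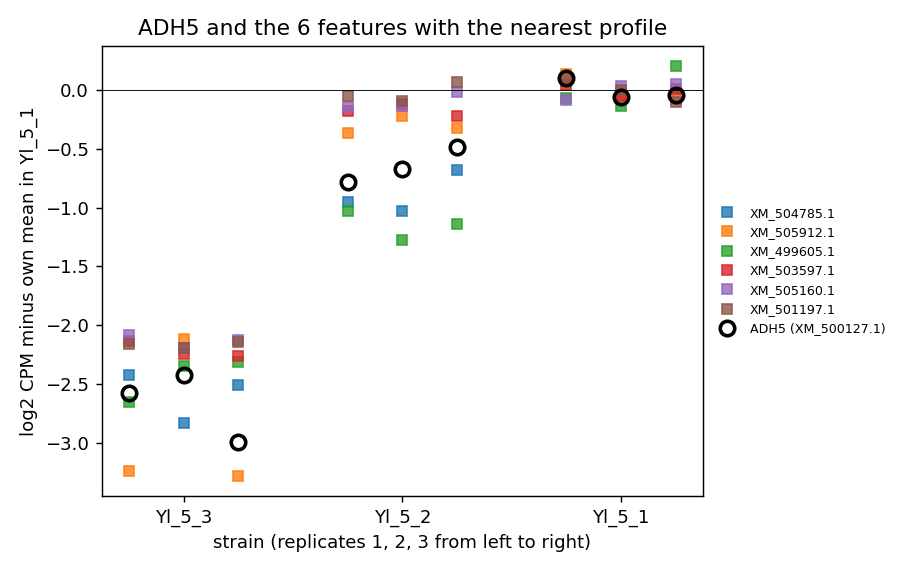
Log2 CPM of ADH5 (open circles) and of the 6 features nearest to it (squares) minus each feature's own mean in Yl_5_1 (vertical axis), in replicates 1, 2 and 3 of Yl_5_3, Yl_5_2 and Yl_5_1 from left to right. All 7 lie far below 0 in Yl_5_3, and in Yl_5_2 the ADH5 circles lie between the squares of the other features.

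The genes beside ADH5 on the chromosome were examined because position played no part in its choice, so that the test applies to them. They are the 5 features of the count table on each side of ADH5 in the gene order of the W29 annotation, with between 3 and 16 gene models of that annotation between them and ADH5. Of these 10, 9 were tested, and the first after ADH5 in that order, XM_500129.1, had at most 5 counts in any sample and was not. In Yl_5_3 against Yl_5_1, 4 of the 9 fell and 1 rose past the same threshold, with p-values from the edgeR fit adjusted over all 6037 features, which is 55.6% against 55.3% of all features. In Yl_5_2 against Yl_5_1, 2 rose and 0 fell, which is 22.2% against 57.4%, and in Yl_5_3 against Yl_5_2, 5 fell and 0 rose, or 55.6% against 67.4%. The median log2 difference of the 9 was -0.11 for Yl_5_3 against Yl_5_1, -0.02 for Yl_5_2 against Yl_5_1 and -0.22 for Yl_5_3 against Yl_5_2. Scaling by total counts alone, which moved the median of all features to -0.16 in Yl_5_3 against Yl_5_2, gave 7 of the 9 as falling in each of the comparisons of Yl_5_3.

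XM_500130.1, at the second place after ADH5 with 4 gene models between it and ADH5, was the neighbour with the largest change. It had 16, 19 and 9 counts in Yl_5_3, 62, 59 and 64 in Yl_5_2, and 100, 50 and 51 in Yl_5_1, which is 0.416, 0.436 and 0.251 FPKM in Yl_5_3, 1.72, 1.56 and 1.77 FPKM in Yl_5_2, and 2.13, 1.32 and 1.42 FPKM in Yl_5_1. Its Yl_5_3 samples lay below all others, and the samples of Yl_5_2 and Yl_5_1 overlapped. It fell by 2.07 on the log2 scale in Yl_5_3 against Yl_5_1 (SE 0.25, Benjamini-Hochberg adjusted p = 2.19e-06 in the edgeR quasi-likelihood fit). It fell by 2.04 in Yl_5_3 against Yl_5_2 (SE 0.25, adjusted p = 1.66e-06 in the same edgeR fit). For Yl_5_2 against Yl_5_1 its log2 difference was -0.04 (adjusted p = 0.88 in the edgeR fit). The sign of this value turned with total counts, to 0.03, without replicate 1 of Yl_5_1, to 0.22, and without replicate 2 of Yl_5_2, to 0.01. Its place at the level of the control in Yl_5_2 set it apart from ADH5 in these values, and the difference between both genes was not tested.

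The other neighbours moved little. XM_500125.1, the nearest before ADH5 with 3 gene models between, averaged 127.6 FPKM in Yl_5_3, 162.5 FPKM in Yl_5_2 and 157.5 FPKM in Yl_5_1, and fell by 0.24 on the log2 scale in Yl_5_3 against Yl_5_1 (Benjamini-Hochberg adjusted p = 0.00018 in the edgeR quasi-likelihood fit). XM_500131.1 fell by 0.32 (adjusted p = 0.0092) and XM_500138.1 by 0.47 (adjusted p = 0.0010) in the same comparison and edgeR fit. XM_500115.1 rose in both mutant strains, by 0.38 in Yl_5_3 (adjusted p = 0.00013) and by 0.33 in Yl_5_2 (adjusted p = 0.00051), again in the edgeR fit. XM_500114.1 rose by 0.17 in Yl_5_2 (adjusted p = 0.0013 in the edgeR fit) and had a log2 difference of -0.09 in Yl_5_3 (adjusted p = 0.062). The log2 differences of XM_500117.1 were -0.11 in Yl_5_3 and -0.07 in Yl_5_2, and those of XM_500120.1 were -0.08 and 0.02. XM_500137.1 had -0.06 in Yl_5_3 and -0.34 in Yl_5_2. The values of XM_500117.1, XM_500120.1 and XM_500137.1 did not pass the threshold. The differences of the 9 neighbours ranged from -2.07 to 0.38 in Yl_5_3 and from -0.34 to 0.33 in Yl_5_2. For ADH5 itself they were -2.67 and -0.65, outside these ranges. ADH5 was chosen for its fall, so that nothing is read from this. None of the neighbours tested had the graded order without overlap that ADH5 had. This order was found in only 3.73% of all features tested, so that its absence among 9 is not a result about the neighbours.

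**Figure D5:**
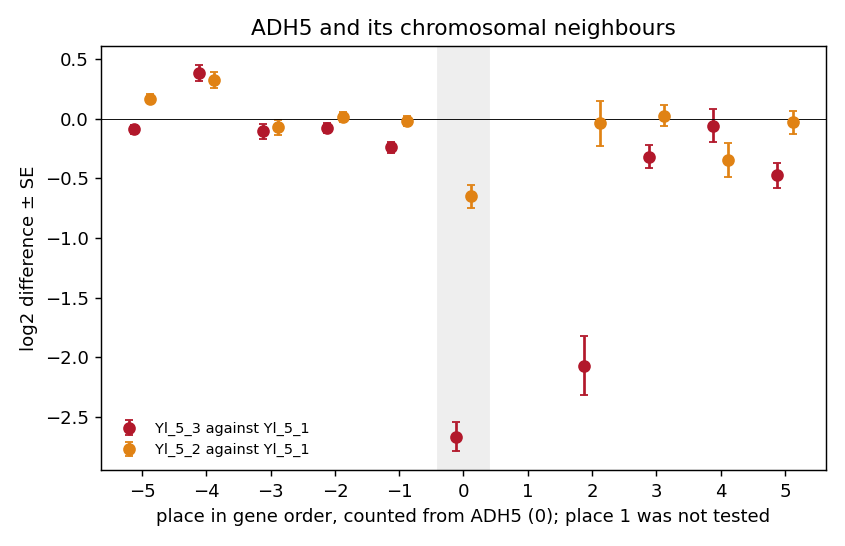
Log2 difference (vertical axis, points with standard errors) of ADH5 (shaded, place 0) and of its neighbours by place in gene order (horizontal axis), for Yl_5_3 against Yl_5_1 and Yl_5_2 against Yl_5_1. ADH5 lies at -2.67 and -0.65, XM_500130.1 at place 2 lies at -2.07 and -0.04, and the other neighbours tested lie between -0.47 and 0.38.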

How the data were processed

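RNA from 3 strains of Y. lipolytica (3 samples each, grouped by their labels) was made into libraries (NEBNext Ultra RNA kit) for paired-end sequencing with an Illumina HiSeq instrument. For 6145 features, the authors deposited whole-number read counts that had not been normalized. The authors also deposited FPKM values, which are these counts divided by feature length and total count. The submitters' processing notes name HTSeq 0.6.1 and DESeq 1.18.0, without their role. The aligner, the genome build and the strand setting of the counting are not given in the sources used here, so that reads of overlapping or antisense genes, or of near-identical copies of an alcohol dehydrogenase gene, could not be told apart.

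Differences were fitted by edgeR 4.0.16 under R 4.3.3 (TMM factors from 0.952 to 1.055, 1 term per strain over all 9 samples, robust quasi-likelihood F test, Benjamini-Hochberg adjustment). A feature was tested if 3 or more samples had 10 or more counts for it, which held for 6037. Log2 CPM used a prior count of 2. Ranks were taken over all 6145 features. The procedure was tested on simulated data in which a small set of features differed, in Yl_5_3 only. Far more features were called in the real data, so that the simulation does not cover differences as common as these. The RefSeq annotation of W29 (ASM176148v1) listed 5430 of the 5959 accessions in the tables, with the version number ignored. It was used for locus tags and gene order only, and the order may differ in the strains sequenced. The annotation used gives no products, proteins or YALI0 identifiers. Relatives of ADH5 by sequence, pathway lists, Yl-SPT15, GUT2 and the promoter were planned and are not analysed here.

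The named genes are ADH5, the 6 features of nearest profile among those with a control mean of at least 10 CPM, and 5 neighbours on each side. Others are marked as chosen after their values were seen. The gene, lists and tests were chosen with earlier results of these data known. Alternatives were other scalings, no filter, each comparison fitted on its own 6 samples, a replicate block and omission of single samples. Further ones were DESeq2 1.42.0, FPKM with pseudocounts of 1 and 0.1, ranks without length, and Pearson's r as the measure of likeness. The DESeq2 test was applied to the numbers of features called and to the neighbours. For ADH5, DESeq2 contributed its size factors only.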

Additional observations from a re-analysis of the deposited data

How the results depend on the processing

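ADH5 was chosen for its graded fall, so that nothing is read from the sign of its differences under the alternatives. The omitted samples include those of the strain outside a comparison, which hardly bear on it. The log2 difference of ADH5 kept its sign under all 16 alternatives in each comparison. It ranged from -2.81 to -2.43 for Yl_5_3 against Yl_5_1, from -0.73 to -0.56 for Yl_5_2 against Yl_5_1 and from -2.16 to -1.87 for Yl_5_3 against Yl_5_2, and when single samples were omitted from -2.81 to -2.52, from -0.73 to -0.58 and from -2.16 to -1.88. The value that moved by more than the spread between replicates was that of Yl_5_3 against Yl_5_1 on log2(FPKM + 1), -2.43, where the added 1 is large beside the level in Yl_5_3. Without division by length, ADH5 was at rank 4998 in Yl_5_2 and 4462 in Yl_5_1. With each sample left out, its rank was 5590 to 5665 in Yl_5_3, 4792 to 4901 in Yl_5_2 and 4250 to 4326 in Yl_5_1. By Pearson's r, 0 of the 6 most similar features were the same, and with total counts 6 of 6 were.

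Numbers of features called ranged from 2946 to 3442 for Yl_5_3 against Yl_5_1, from 3178 to 3492 for Yl_5_2 against Yl_5_1 and from 3780 to 4220 for Yl_5_3 against Yl_5_2 over 15 alternatives. Among the 9 neighbours, 394 of 405 values under alternatives stayed on their side of the threshold, 11 newly passed it, 0 lost it and 0 called values were reversed, while 15 uncalled values changed sign. XM_500137.1 was the neighbour that newly passed in Yl_5_2 against Yl_5_1, with replicate 3 of Yl_5_1 or replicate 2 of Yl_5_3 left out (adjusted p = 0.038 and 0.041, edgeR) and in the fit of 6 samples.

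The replicate numbers of the strains were treated as names only. Deviations of same-numbered samples correlated from -0.155 to 0.149, with 1 of 9 pairs over 0.1, and those of other pairs from -0.272 to 0.264. With a replicate block, ADH5 had -2.67 for Yl_5_3 against Yl_5_1, -0.65 for Yl_5_2 against Yl_5_1 and -2.02 for Yl_5_3 against Yl_5_2, and 3264, 3430 and 4037 features were called in these comparisons. The settings foreseen for relatives of ADH5 called were not run, since no relatives were identified here. With 46 to 85 counts per sample in Yl_5_3, depth limits the value of ADH5 there more than in the other strains.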

Other observations

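XM_500126.1, whose accession precedes that of ADH5, has no place in the gene order used and was looked up after its values were seen. It had 11, 11 and 10 counts in Yl_5_3, 26, 29 and 28 in Yl_5_2, and 30, 31 and 17 in Yl_5_1. All Yl_5_3 samples lay below all others, and the samples of Yl_5_2 and Yl_5_1 overlapped. Its log2 difference was -1.18 (SE 0.27, adjusted p = 0.0015) for Yl_5_3 against Yl_5_1, 0.16 (adjusted p = 0.57) for Yl_5_2 against Yl_5_1 and -1.34 (adjusted p = 0.00031) for Yl_5_3 against Yl_5_2 in the edgeR quasi-likelihood fit with p-values adjusted after Benjamini and Hochberg. XM_500128.1, whose accession follows that of ADH5, had 1 count in the 9 samples together.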
